A study of Mus musculus with 9 samples.

Results

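The genes described here are 10 components of fibroblast growth factor (FGF) signalling through the kinase ERK: the ligand *Fgf4*, the receptors *Fgfr1* and *Fgfr2*, the feedback inhibitors *Spry1*, *Spry2*, *Spry4*, *Spred1* and *Dusp6*, and the ETS transcription factors *Etv4* and *Etv5*. They were chosen by name, not by their values, out of 55471 genes in the count table. All 10 were found and passed the filter on low counts in every comparison. RNA sequencing had been done on embryoid bodies (EBs), the clumps that mouse embryonic stem cells form as they start to differentiate, in 9 libraries that made 3 groups of 3. WT EBs came from the unedited parental E14 line. KO EBs (labelled Tnfaip2-/-) came from 1 clone of that line in which CRISPR/Cas9 had put an early frameshift into *Tnfaip2*, so that the genotype and the clone cannot be told apart. KO_PAPC EBs came from the same clone and were given 8 μM palmitic acid (PA) and 8 μM palmitoyl-L-carnitine (PC). For KO EBs a figure legend of the study names a vehicle control, and its methods say only that PA/PC was absent. In all groups 1000 cells per hanging drop formed EBs for 3 days. The EBs were then plated and differentiated for 3 days in MEF medium. That medium holds serum replacement per the labels and fetal bovine serum per the study's methods. For EB formation the methods give embryonic stem cell medium in general, but MEF medium with PA/PC for treated EBs. PA/PC was thus present in both stages. By that account PA/PC and the medium of EB formation cannot be told apart in KO_PAPC. The study reports no significant effect of PA/PC on the differentiation of WT EBs, judged by rosette diameter. WT EBs with PA/PC are not among these 9 libraries, so an effect of PA/PC on the RNA of WT EBs was not measured.

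FGF ligands bind receptor tyrosine kinases at the cell surface and, through adaptor proteins and RAS, activate the RAF, MEK and ERK kinases. ERK raises the transcription of its own brakes: Sprouty and SPRED proteins act on the steps between receptor and RAF, and DUSP6 removes phosphate from ERK in the cytoplasm. ETV4 and ETV5 are transcription factors whose genes are commonly read as ERK targets. In mouse embryonic stem cells FGF4, acting on FGFR1 and FGFR2, is known as the main autocrine signal that moves cells out of the naive pluripotent state, and in the early embryo it is known for inducing primitive endoderm.

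The study asked whether loss of *Tnfaip2* holds EBs back from differentiation and whether PA/PC restores it, and the FGF and ERK genes were read for the same 3 comparisons. Depth was even, with 27362913 to 28914312 counts per library, and every pair of replicates differed by more than sampling noise. The excess was small, with a chi-square per degree of freedom of 1.22 to 3.45. The common spread between replicates beyond counting noise, as edgeR estimates it, was 2.09% to 2.65%. The SEs and p-values below thus measure the spread between EB replicates of 1 parental line and 1 clone, not between lines or clones. *Tnfaip2* itself was too low to check the labels, with 6 to 16 counts per library in WT, 5 to 8 in KO and 14 to 25 in KO_PAPC. Levels are given as normalized CPM, counts scaled to library sizes that were normalized by edgeR's TMM method. The scaling mattered for KO_PAPC, whose TMM factors were 0.921 to 0.926 against 1.04 in the other groups: with library totals in place of TMM the median of all genes' log2 fold changes went from -0.017 to -0.18 against KO and likewise from -0.017 to -0.18 against WT. The RNA came from whole EBs, so fewer cells of a type and less RNA per cell cannot be told apart.

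Because genes differ in length, levels of different genes were compared per kilobase of exon. In WT EBs *Spry2* had the highest value of the 10, at 77.3 ± 1.46 normalized CPM per kb (mean ± SD, n = 3), followed by *Etv5* at 64.3 ± 1.06 and *Fgf4* at 60.4 ± 2.07. *Fgfr2* was the lowest in all groups and, at 2.88 ± 0.0931 normalized CPM per kb in WT, lay far below *Fgfr1* at 21.3 ± 0.306. In KO EBs *Etv5* took the first place at 91.1 ± 0.470 normalized CPM per kb, and in KO_PAPC EBs *Spry2* stood first at 142 ± 1.76. Neighbours in the order overlapped between libraries only for *Dusp6* and *Spry4* in KO and for *Dusp6* and *Etv5* in KO_PAPC.

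**Figure D1:**
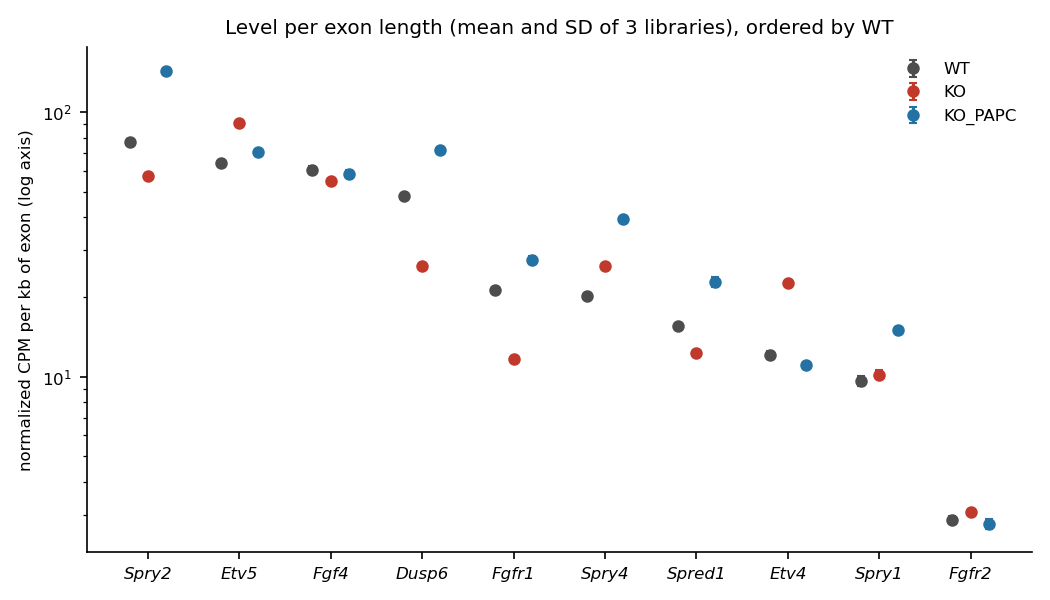
Level of each of the 10 genes per kilobase of exon (y axis, normalized CPM per kb, log axis) in WT, KO and KO_PAPC EBs, with points for means and bars for the SD of 3 libraries. Genes are ordered by their WT level, from *Spry2* at 77.3 ± 1.46 to *Fgfr2* at 2.88 ± 0.0931, and *Etv4*, *Etv5* and *Fgfr2* are the genes with the KO point above both others.

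The ligand changed little. *Fgf4* (ENSMUSG00000050917, chromosome 7, 144847367 to 144865243, plus strand, GRCm38), which encodes the FGF that stem cells make themselves, was at 200.5, 188 and 190.4 normalized CPM in the WT libraries, 176, 175 and 177 in KO and 194, 181 and 187 in KO_PAPC. KO libraries lay below all others, and the WT and KO_PAPC values overlapped. The log2 fold change was -0.14 ± 0.027 (SE, edgeR adjusted p = 3.13e-05) in KO against WT, which left 91.0% of the WT level. In KO_PAPC against KO it was 0.085 ± 0.029 (SE, edgeR adjusted p = 0.00783). The sign of that small difference rested on the scaling: with library totals it was -0.082 (edgeR adjusted p = 0.0106), and without KO replicate 2 it was 0.076 (edgeR adjusted p = 0.0514). Against WT, KO_PAPC did not pass the test, at -0.053 ± 0.034 (SE, edgeR adjusted p = 0.161), but the value was -0.22 (edgeR adjusted p = 2.42e-06) with library totals and -0.079 (edgeR adjusted p = 0.0310) without KO_PAPC replicate 1. With the replicate number as a block it was -0.053 (edgeR adjusted p = 0.0163).

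The 2 receptors behaved differently. *Fgfr1* (ENSMUSG00000031565, chromosome 8, 25513654 to 25575718, plus strand) encodes a receptor tyrosine kinase that binds FGF4, and it was at 207, 212 and 212 normalized CPM in the WT libraries, 114, 116 and 114 in KO and 262, 279.9 and 274 in KO_PAPC. The 3 groups did not overlap, with KO lowest and KO_PAPC highest. It fell in KO to 54.5% of WT, a log2 fold change of -0.87 ± 0.026 (SE, edgeR adjusted p = 5.37e-25). In KO_PAPC it was 2.36-fold higher than in KO, with a log2 fold change of 1.24 ± 0.029 (SE, edgeR adjusted p = 4.66e-30), and it passed WT by 0.36 ± 0.030 (SE, edgeR adjusted p = 7.25e-11) on the log2 scale. *Fgfr2* (ENSMUSG00000030849, chromosome 7, 130162451 to 133123350, minus strand) encodes the related receptor that is known for its part in primitive endoderm. It was at 30.7, 28.8 and 29.9 normalized CPM in the WT libraries, 32.8, 31.7 and 31.2 in KO and 27.7, 30.0 and 28.03 in KO_PAPC. These values lay close together, and KO_PAPC overlapped WT. The log2 fold change in KO against WT, 0.10 ± 0.045 (SE, edgeR adjusted p = 0.0578), did not pass, and in KO_PAPC against KO *Fgfr2* fell by 0.16 on the log2 scale (edgeR adjusted p = 0.00299). The difference from WT, at -0.068 ± 0.051 (SE, edgeR adjusted p = 0.233), did not pass, and with library totals it was -0.23 (edgeR adjusted p = 2.29e-04). The KO value lay at the threshold, since it passed without KO replicate 3 (edgeR adjusted p = 0.0489), without WT replicate 1 (edgeR adjusted p = 0.0341) and with RLE size factors (edgeR adjusted p = 0.0445). The annotated span of *Fgfr2* takes in other genes, and 3.04% of its exon bases overlap *Ctbp2*, while 1.66% of those of *Fgfr1* overlap the antisense gene *Gm16159*.

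Of the genes described next, *Dusp6*, *Spry2* and *Spred1* fell in KO EBs while *Etv4* and *Etv5* rose, and the sequences upstream of a few of them are shown for that reason. RefSeq promoters of GRCm38.p6 were matched for 7 of the 10 genes (*Fgf4*, *Fgfr2*, *Spry1*, *Spry2*, *Spred1*, *Dusp6* and *Etv5*, the last with 2 start sites). The 250 bases before the start site of *Dusp6* and *Spry2*, which were lower in KO, and of *Etv5*, which was higher, read as follows from 5′ to 3′ on the gene's strand, with every GGAA or its complement TTCC, the core letters that ETS factors recognise, in capitals.
*Dusp6*, chr10:99262981-99263230, plus strand: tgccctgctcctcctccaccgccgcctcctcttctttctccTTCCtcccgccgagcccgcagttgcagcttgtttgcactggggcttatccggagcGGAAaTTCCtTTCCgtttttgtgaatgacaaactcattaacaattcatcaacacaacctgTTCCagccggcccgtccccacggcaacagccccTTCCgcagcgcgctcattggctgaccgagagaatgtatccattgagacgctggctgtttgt
*Spry2*, chr14:105896820-105897069, minus strand: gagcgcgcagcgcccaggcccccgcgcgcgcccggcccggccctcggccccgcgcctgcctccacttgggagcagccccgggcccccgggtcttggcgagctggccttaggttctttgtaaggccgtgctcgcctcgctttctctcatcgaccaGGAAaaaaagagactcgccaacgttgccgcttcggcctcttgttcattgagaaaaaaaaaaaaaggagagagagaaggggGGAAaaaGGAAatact
*Etv5*, chr16:22439571-22439820, minus strand: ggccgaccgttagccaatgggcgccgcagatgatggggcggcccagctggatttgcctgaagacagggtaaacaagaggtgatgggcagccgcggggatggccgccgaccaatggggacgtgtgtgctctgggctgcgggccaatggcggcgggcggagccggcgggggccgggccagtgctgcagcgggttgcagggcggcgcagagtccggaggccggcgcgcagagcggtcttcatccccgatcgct
In the full windows of 300 bases, from 250 before to 50 after the start site, *Dusp6* held 6 GGAA cores on either strand, *Spry2* 5 and this *Etv5* promoter 0, while its second promoter held 6. Of the matched genes not printed, *Spred1* and *Fgf4*, both lower in KO, held 5 and 0. *Fgfr2* held 4 and *Spry1* 1. The number of cores thus did not follow the direction of change. Of 32851 mouse promoters of that length 96.0% held at least 1, with a median of 3, so these letters are common. The longer motif CCGGAAG was in none of the 8 windows (8.86% of all promoters, both strands), nor was the AP-1 motif TGANTCA (7.81%), which says only that these letters are not in these windows.

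*Dusp6* (ENSMUSG00000019960, chromosome 10, 99263231 to 99267489, plus strand) encodes the phosphatase that switches off ERK and is widely read as a measure of ERK activity. It was at 153, 150.1 and 151 normalized CPM in the WT libraries, 82.6, 82.4 and 81.0 in KO and 227, 219 and 227 in KO_PAPC. No library of one group reached another group. KO fell to 54.1% of WT, a log2 fold change of -0.89 ± 0.028 (SE, edgeR adjusted p = 3.33e-24). KO_PAPC was 2.73-fold above KO, with a log2 fold change of 1.45 ± 0.030 (SE, edgeR adjusted p = 5.29e-32), the largest of the 10 genes, and 1.47-fold above WT (log2 fold change 0.56 ± 0.030 SE, edgeR adjusted p = 1.45e-14). This order of KO, WT and KO_PAPC was that of *Fgfr1*, the receptor.

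*Spry2* (ENSMUSG00000022114, chromosome 14, 105891947 to 105896819, minus strand), a Sprouty protein that restrains RAS activation, followed the same order. It was at 158, 162 and 164 normalized CPM in the WT libraries, 119.7, 123 and 116 in KO and 301, 294 and 296 in KO_PAPC. The groups again stood apart. The log2 fold change was -0.43 ± 0.028 (SE, edgeR adjusted p = 1.01e-15) in KO against WT and 1.31 ± 0.028 (SE, edgeR adjusted p = 2.80e-31) in KO_PAPC against KO. KO_PAPC ended 1.83-fold above WT (0.87 ± 0.029 SE, edgeR adjusted p = 1.04e-18 on the log2 scale). *Spred1* (ENSMUSG00000027351, chromosome 2, 117121374 to 117182279, plus strand), whose product brings the RAS inhibitor neurofibromin to the membrane, was the third inhibitor with this order. It was at 108, 104 and 104 normalized CPM in the WT libraries, 81.7, 83.6 and 84.0 in KO and 161, 148 and 155 in KO_PAPC. Its 3 groups did not overlap. KO held 78.7% of the WT level (log2 fold change -0.35 ± 0.030 SE, edgeR adjusted p = 3.31e-12), and KO_PAPC lay 1.86-fold above KO and 1.46-fold above WT (edgeR adjusted p = 5.89e-24 and 7.57e-13). The share of all tested genes with this order, KO lowest and KO_PAPC highest, was not counted. The order thus describes these genes and is not shown to set them apart.

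The other Sprouty genes did not fall in KO. *Spry4* (ENSMUSG00000024427, chromosome 18, 38586247 to 38601415, minus strand) was at 94.0, 95.7 and 97.6 normalized CPM in the WT libraries, 125, 124 and 123 in KO and 188, 186 and 190.5 in KO_PAPC. Each group lay above the one before. *Spry4* rose in KO by 0.37 ± 0.029 (SE, edgeR adjusted p = 1.35e-13) on the log2 scale and rose again in KO_PAPC, by 0.60 ± 0.028 (SE, edgeR adjusted p = 1.42e-20). Against WT the rise was 1.95-fold, with a log2 fold change of 0.97 ± 0.031 (SE, edgeR adjusted p = 6.08e-19), the largest of the 10 genes in that comparison. *Spry1* (ENSMUSG00000037211, chromosome 3, 37639947 to 37644598, plus strand) was at 28.9, 28.4 and 26.6 normalized CPM in the WT libraries, 28.7, 29.2 and 30.9 in KO and 43.4, 42.9 and 44.7 in KO_PAPC. The WT and KO ranges overlapped and KO_PAPC stood above both. Its log2 fold change in KO against WT, 0.080 ± 0.048 (SE, edgeR adjusted p = 0.132), did not pass. In KO_PAPC it was 1.47-fold above KO (log2 fold change 0.56 ± 0.045 SE, edgeR adjusted p = 7.67e-14) and 1.55-fold above WT (log2 fold change 0.64 ± 0.047 SE, edgeR adjusted p = 7.85e-12). The antisense gene *Gm42922* covers 24.4% of the *Spry1* exons, and reads from the shared part are an uncertain share of the *Spry1* count, since they may have been given to neither gene.

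**Figure D2:**
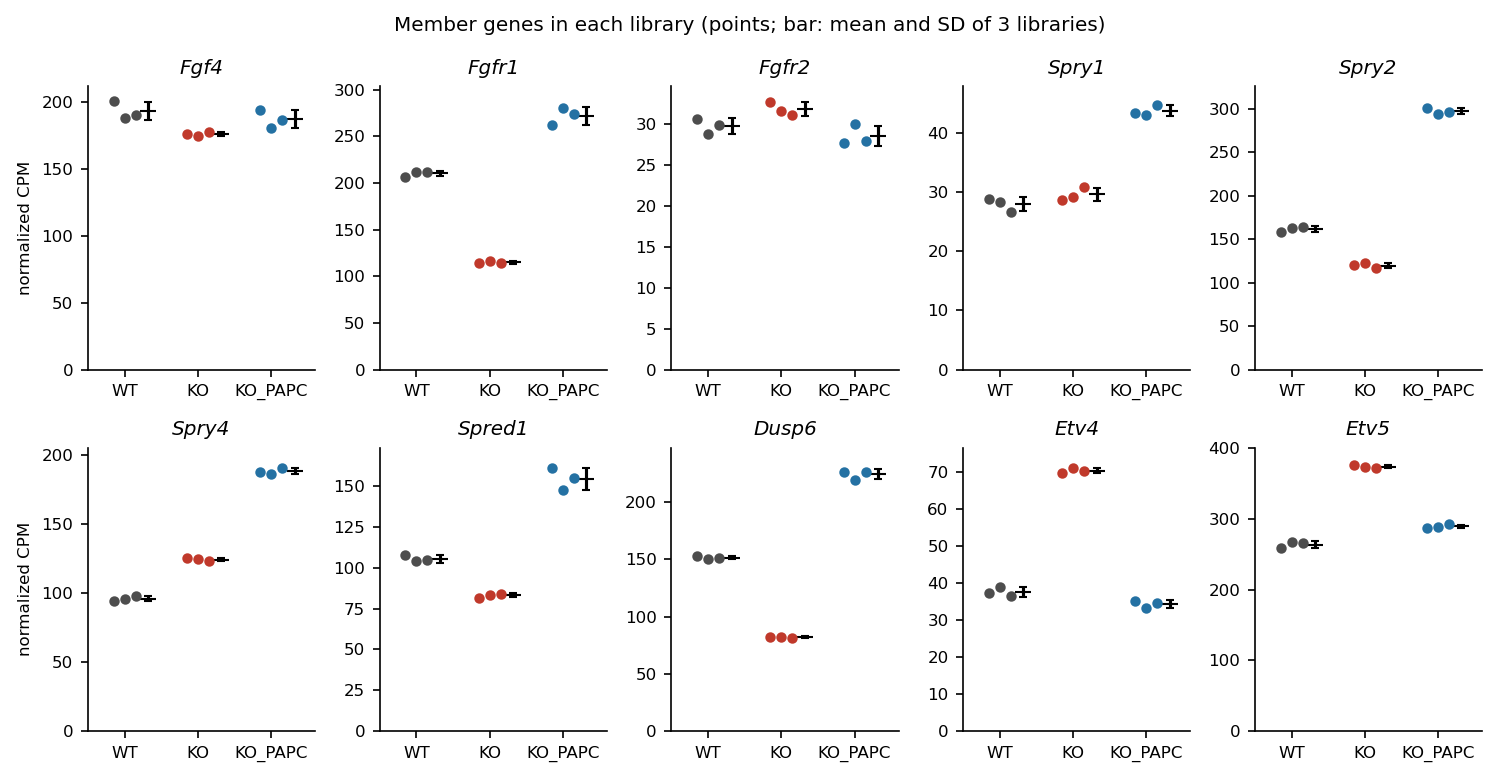
Normalized CPM (y axis, starting at 0) of each of the 10 genes in each of the 9 libraries, with 1 point per library and a black bar for the mean and SD of 3 libraries per group. *Fgfr1*, *Spry2*, *Spred1* and *Dusp6* are lowest in KO and highest in KO_PAPC, *Etv4* and *Etv5* are highest in KO, and *Fgf4* and *Fgfr2* differ little.

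The ETS factors went the other way from *Dusp6*, *Spry2* and *Spred1*. *Etv4* (ENSMUSG00000017724, chromosome 11, 101769742 to 101785371, minus strand) was at 37.2, 39.0 and 36.5 normalized CPM in the WT libraries, 69.7, 71.0 and 70.3 in KO and 35.1, 33.1 and 34.7 in KO_PAPC. KO libraries lay far above the rest, and KO_PAPC lay just below WT. *Etv4* rose in KO 1.87-fold, with a log2 fold change of 0.90 ± 0.037 (SE, edgeR adjusted p = 3.89e-21), and fell in KO_PAPC to 48.6% of KO (log2 fold change -1.04 ± 0.040 SE, edgeR adjusted p = 1.79e-23). The remaining difference from WT was -0.14 ± 0.046 (SE, edgeR adjusted p = 0.00898) on the log2 scale, and it did not pass in DESeq2 (-0.12, adjusted p = 0.106), without KO_PAPC replicate 2 (edgeR adjusted p = 0.0525) or without WT replicate 2 (edgeR adjusted p = 0.0540). *Etv5* (ENSMUSG00000013089, chromosome 16, 22381309 to 22439719, minus strand) was at 259, 267 and 266 normalized CPM in the WT libraries, 376, 373 and 372 in KO and 287, 288 and 292 in KO_PAPC. KO again stood highest, and KO_PAPC came back most of the way. The log2 fold change was 0.50 ± 0.023 (SE, edgeR adjusted p = 6.51e-20) in KO against WT and -0.37 ± 0.025 (SE, edgeR adjusted p = 3.20e-16) in KO_PAPC against KO. KO_PAPC stayed 1.09-fold of WT (log2 fold change 0.13 ± 0.027 SE, edgeR adjusted p = 2.32e-04), and with library totals that difference turned to -0.039 (edgeR adjusted p = 0.197). Part of the *Etv5* sequence has a near copy: 24.3% of its 51-base words also occur in *Gm4798*, and reads that map to both were not counted.

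Across the 10 genes, 8 passed the test in KO against WT, 3 higher and 5 lower, against 73.8% of all tested genes (36.8% higher and 37.1% lower). The median log2 fold change of the 10 was -0.028, with a range from -0.89 for *Dusp6* to 0.90 for *Etv4*, and that of all tested genes was -0.0059. In KO_PAPC against KO all 10 passed, 7 higher and 3 lower, against 81.8% of all genes (39.6% higher and 42.2% lower). There the median of the 10 was 0.58 and that of all genes -0.017. In KO_PAPC against WT 8 passed, 7 higher and 1 lower, against 70.6% of all genes (34.2% higher and 36.4% lower), and the medians were 0.45 and -0.017. With library totals the split of the 10 was 6 higher and 4 lower in KO_PAPC against KO, and 6 higher and 3 lower in KO_PAPC against WT. Over all genes it was then 5317 higher and 8684 lower, and 3616 higher and 8341 lower. The shares called lie near those of all genes, so the number of changed members says little by itself. Each group of libraries enters 2 of the comparisons, so a rise in one and a fall in the other share the same KO or WT values.

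Values of the 2 groups did not overlap for 9 of the 10 genes in KO against WT, where 75.3% of all tested genes did not overlap. The numbers were 10 of 10 in KO_PAPC against KO (82.2% of all genes) and 8 of 10 in KO_PAPC against WT (72.6%). Most changes were below 2-fold. When a change had to exceed 2-fold to pass, none of the 10 passed in KO against WT, where 9.14% of all genes did (5.36% higher and 3.79% lower). None passed in KO_PAPC against WT, where 8.02% did (0.961% higher and 7.05% lower). In KO_PAPC against KO, *Fgfr1*, *Spry2* and *Dusp6* passed, all higher, where 20.7% of all genes passed (6.26% higher and 14.4% lower). *Etv4*, at -1.04 on the log2 scale, did not pass that test (edgeR adjusted p = 0.239).

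**Figure D3:**
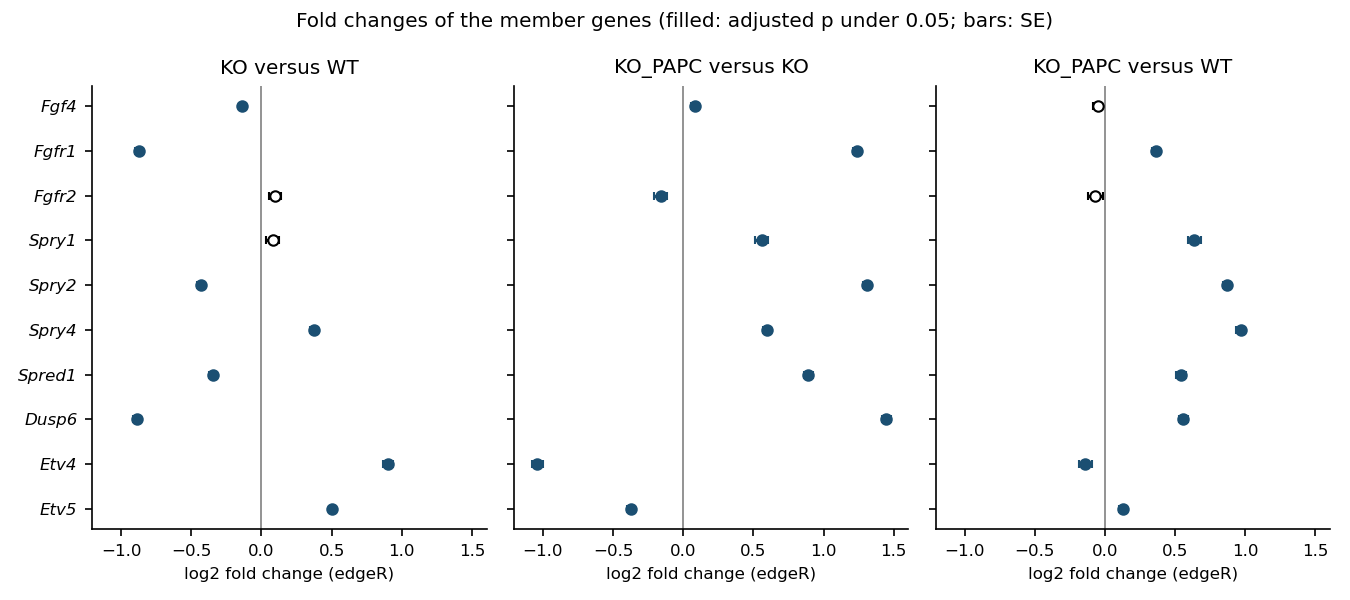
Log2 fold change of each of the 10 genes (x axis, edgeR) in KO against WT, KO_PAPC against KO and KO_PAPC against WT, with bars for the SE and filled points where the adjusted p was under 0.05. *Dusp6* runs from -0.89 to 1.45 and *Etv4* from 0.90 to -1.04 between the first and the second panel.

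The other genes of the pathway were read from a list of 82 matched genes in 5 roles, of which 73 were tested in each comparison; *Spry3* was not matched. In KO against WT 18 were higher and 39 lower, in KO_PAPC against KO 39 were higher and 29 lower, and in KO_PAPC against WT 40 were higher and 23 lower. Of all tested genes 36.8% were higher and 37.1% lower in KO against WT. The shares were 39.6% and 42.2% in KO_PAPC against KO, and 34.2% and 36.4% in KO_PAPC against WT. The counts for each role and marker list below stand beside the same shares. With library totals the last 2 splits were 34 and 34, and 27 and 29. The medians of the tested genes were -0.16, 0.19 and 0.15 on the log2 scale.

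Of the 21 other genes listed as FGF ligands, 15, 14 and 14 were tested in the 3 comparisons. The list includes *Fgf11*, *Fgf12*, *Fgf13* and *Fgf14*, whose products stay inside the cell. Of the tested genes, 2 were higher and 8 lower in KO against WT EBs, 7 higher and 4 lower in KO_PAPC against KO, and 6 higher and 3 lower in KO_PAPC against WT. Library totals changed the last 2 splits to 7 and 6, and 5 and 3. *Fgf15*, which is expressed in early neural tissue and in the gut, had the largest change in KO against WT of the ligands with a mean of at least 10 CPM in WT or KO. It was at 76.7 ± 2.204 normalized CPM in WT (mean ± SD, n = 3), 16.3 ± 0.579 in KO and 149 ± 3.55 in KO_PAPC, with log2 fold changes of -2.23 ± 0.044 (SE, edgeR adjusted p = 2.47e-30) in KO against WT and 3.18 ± 0.041 (SE, edgeR adjusted p = 3.03e-38) in KO_PAPC against KO. *Fgf8*, a ligand of the primitive streak, was at 5.29 ± 0.877 normalized CPM in WT EBs, 1.003 ± 0.360 in KO EBs and 15.4 ± 0.628 in KO_PAPC EBs. It was 15.3-fold higher in KO_PAPC than in KO, with a log2 fold change of 3.93 ± 0.13 (SE, edgeR adjusted p = 6.06e-26). *Fgf5*, a marker of the post-implantation epiblast, rose from 33.2 ± 0.179 normalized CPM in WT to 67.5 ± 2.05 in KO_PAPC (log2 fold change 1.01 ± 0.041 SE, edgeR adjusted p = 7.03e-17). *Fgf11*, a family member that stays inside the cell, fell in KO (log2 fold change -1.42 ± 0.073 SE, edgeR adjusted p = 2.82e-18) and rose in KO_PAPC over KO (1.49 ± 0.077 SE, edgeR adjusted p = 1.73e-19). *Fgf1* went the other way in KO, at 0.58 ± 0.057 (SE, edgeR adjusted p = 4.93e-11).

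Among 12 other receptors and co-receptors, of which 11 were tested, 2 were higher and 6 lower in KO against WT. In both comparisons with KO_PAPC 5 were higher and 6 lower (3 and 6 against WT with library totals). *Hs6st1*, a sulfotransferase that shapes heparan sulfate, was at 76.8 ± 3.46 normalized CPM in WT EBs, 154 ± 5.03 in KO EBs and 52.7 ± 2.14 in KO_PAPC EBs. The log2 fold change was 1.003 ± 0.032 (SE, edgeR adjusted p = 4.66e-24) in KO against WT and -1.55 ± 0.035 (SE, edgeR adjusted p = 1.45e-30) in KO_PAPC against KO, a course like that of *Etv4*. *Sdc1*, a heparan sulfate proteoglycan, had the opposite course, with -0.77 ± 0.041 (SE, edgeR adjusted p = 6.62e-18) and 1.36 ± 0.040 (SE, edgeR adjusted p = 4.67e-27). *Klb*, the co-receptor for endocrine FGFs, was at 10.7 ± 0.676 normalized CPM in WT EBs, 4.88 ± 0.631 in KO EBs and 0.418 ± 0.166 in KO_PAPC EBs (log2 fold change -4.67 ± 0.17 SE, edgeR adjusted p = 4.75e-18 in KO_PAPC against WT). The proteoglycans *Sdc4* and *Gpc4* were also lower in KO_PAPC than in WT, with log2 fold changes of -1.74 and -1.36 (edgeR adjusted p = 2.04e-23 and 3.03e-18).

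Medians lay near 0 for the 21 adaptors and kinases from FRS to ERK. Of these, 8 were higher and 8 lower in KO against WT, 9 higher and 11 lower in KO_PAPC against KO, and 9 higher and 8 lower in KO_PAPC against WT, with medians of 0.032, -0.063 and -0.047. With library totals the split was 6 higher and 13 lower in KO_PAPC against KO, and 5 higher and 13 lower in KO_PAPC against WT. *Grb2*, the adaptor between receptor and RAS, was 1.46-fold higher in KO than in WT (log2 fold change 0.55 ± 0.027 SE, edgeR adjusted p = 5.38e-19) and fell in KO_PAPC to 57.6% of KO (edgeR adjusted p = 9.19e-24). *Ksr1*, a scaffold for the kinase cascade, rose and fell alike (0.74 ± 0.047 SE, edgeR adjusted p = 5.79e-16 and -1.10 ± 0.051 SE, edgeR adjusted p = 7.26e-21). *Frs3*, a docking protein of the receptors, was lower than WT in both groups, by log2 fold changes of -0.75 and -0.51 (edgeR adjusted p = 1.66e-11 and 1.31e-06). The GTPase gene *Nras* rose in KO_PAPC over KO (0.73 ± 0.027 SE, edgeR adjusted p = 6.44e-24), and *Mapk3*, which encodes ERK1, was 1.46-fold above WT in KO_PAPC (edgeR adjusted p = 2.79e-13).

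The list of further feedback inhibitors is broad and also holds *Flrt3* and general negative regulators such as *Nf1*, *Rasa1* and *Cbl*. Its genes moved both ways, as the members did. Of 13, 5 were higher and 7 lower in KO against WT, 8 higher and 4 lower in KO_PAPC against KO, and 10 higher and 3 lower in KO_PAPC against WT, which library totals changed to 6 and 5, and 6 and 3. *Spred3*, the relative of *Spred1*, was at 21.2 ± 0.996 normalized CPM in WT EBs, 10.5 ± 0.502 in KO EBs and 35.2 ± 1.99 in KO_PAPC EBs, and had the order of *Dusp6* (log2 fold changes -1.02 ± 0.062 SE, edgeR adjusted p = 2.25e-16 and 1.74 ± 0.060 SE, edgeR adjusted p = 6.68e-25). *Dusp4*, a nuclear ERK phosphatase, was instead highest in KO, at 50.1 ± 1.79, 106 ± 1.40 and 83.3 ± 1.78 normalized CPM in WT, KO and KO_PAPC. It rose in KO by 1.09 ± 0.033 (SE, edgeR adjusted p = 9.90e-25) on the log2 scale and stayed above WT in KO_PAPC (0.73 ± 0.038 SE, edgeR adjusted p = 1.16e-14). *Dusp9*, a cytoplasmic phosphatase of the same class as *Dusp6*, fell in KO_PAPC to 38.5% of KO (-1.38 ± 0.032 SE, edgeR adjusted p = 2.58e-30) and to 50.5% of WT (-0.99 ± 0.039 SE, edgeR adjusted p = 4.52e-17). *Flrt3*, a membrane protein that binds FGF receptors and is not an established inhibitor, fell in KO (-0.80 ± 0.049 SE, edgeR adjusted p = 2.96e-16). It was lower still in KO_PAPC (-1.33 ± 0.072 SE, edgeR adjusted p = 5.59e-19). *Il17rd*, *Dusp2* and *Dusp5* fall outside the naming rule and are given after their values were seen. *Il17rd* had the order of *Dusp6* (log2 fold changes -0.47 and 1.19, edgeR adjusted p = 4.43e-15 and 5.61e-28). *Dusp2* rose in KO, where WT and KO values overlapped, and again in KO_PAPC (0.46 and 0.75, edgeR adjusted p = 0.0191 and 5.55e-05). *Dusp5*, another nuclear ERK phosphatase, was picked because it had the order of *Dusp6* and not that of *Dusp4*. Its changes were smaller than those of *Il17rd*, so *Dusp5* does not stand for the list. It was at 17.8 ± 1.30 normalized CPM in WT EBs, 15.3 ± 0.817 in KO EBs and 21.7 ± 1.10 in KO_PAPC EBs, with log2 fold changes of -0.22 ± 0.062 (SE, edgeR adjusted p = 0.00224) in KO against WT and 0.50 ± 0.061 (SE, edgeR adjusted p = 1.85e-09) in KO_PAPC against KO.

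Of 15 further genes listed as ERK targets, 13 were tested in KO against WT, where 1 was higher and 10 lower (median -0.48). The list also holds *Elk1*, *Elk3* and *Elk4*, whose proteins are substrates of ERK, so it is not only a readout of transcription. The gene higher in KO was *Elk1*, at 0.75 ± 0.040 (SE, edgeR adjusted p = 6.84e-18). In KO_PAPC against KO 10 were higher and 4 lower (median 0.75), and in KO_PAPC against WT 10 were higher and 3 lower (median 0.44; 8 and 4 with library totals). *Egr1*, an immediate early transcription factor, was at 24.5 ± 0.220 normalized CPM in WT EBs, 19.96 ± 0.309 in KO EBs and 113 ± 2.86 in KO_PAPC EBs. It was 5.66-fold higher in KO_PAPC than in KO (log2 fold change 2.50 ± 0.041 SE, edgeR adjusted p = 4.02e-35) and 4.60-fold higher than in WT (2.202 ± 0.040 SE, edgeR adjusted p = 7.13e-24). *Etv1*, the relative of *Etv4* and *Etv5*, did not share their course. It was at 15.8 ± 1.54 normalized CPM in WT EBs, 8.46 ± 0.367 in KO EBs and 37.5 ± 2.22 in KO_PAPC EBs, with log2 fold changes of -0.90 ± 0.074 (SE, edgeR adjusted p = 4.97e-13) in KO against WT and 2.14 ± 0.062 (SE, edgeR adjusted p = 3.03e-27) in KO_PAPC against KO. The early response gene *Ier3* moved like *Etv1* (-0.90 ± 0.053 SE, edgeR adjusted p = 1.32e-16 and 1.37 ± 0.052 SE, edgeR adjusted p = 1.26e-23). *Phlda1* fell in KO (-0.76 ± 0.075 SE, edgeR adjusted p = 6.54e-11), and *Phlda1* and the ETS repressor *Elk3* were lower in KO_PAPC than in WT, at -1.54 and -1.45 (edgeR adjusted p = 4.60e-14 and 9.07e-15).

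**Figure D4:**
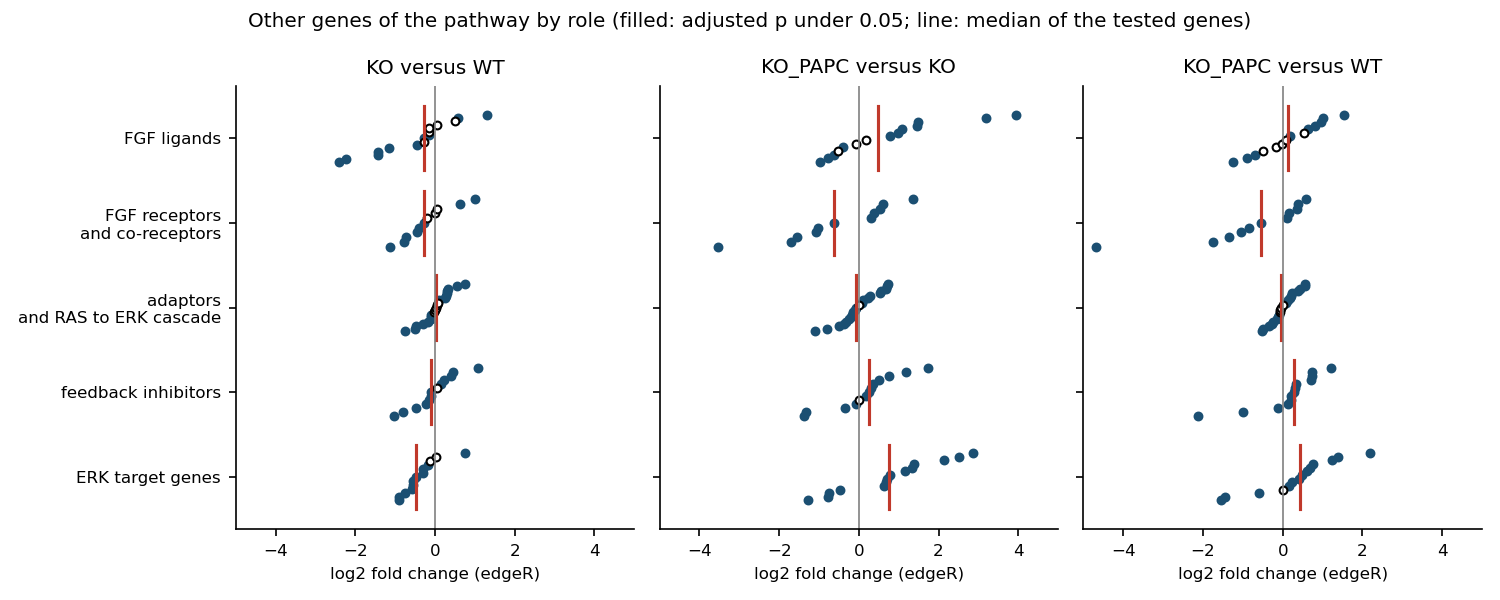
Log2 fold change (x axis, edgeR) of the tested genes among the 82 other pathway genes, grouped by role, in the 3 comparisons, with filled points where the adjusted p was under 0.05 and a red line at each role's median. The genes listed as ERK targets, which include *Elk1*, *Elk3* and *Elk4*, have medians of -0.48, 0.75 and 0.44, and the medians of the adaptors and kinases lie near 0.

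Markers of the cell states that EBs can hold also differed between the groups, and their part in the results was not tested. Each list held 10 genes, but not all were tested in KO against WT and in KO_PAPC against KO. The numbers tested were 8 and 9 for neuroectoderm, 9 and 9 for streak and mesoderm, and 8 and 8 for trophoblast. Summed over 10 naive pluripotency genes the level was 1494 to 1529 normalized CPM in WT, 3112 to 3126 in KO and 1104 to 1120.0 in KO_PAPC, and all 10 were called higher in KO against WT and lower in KO_PAPC against KO. Summed over 10 formative and primed epiblast genes, which include *Fgf5* and *Dusp9*, it was 1409 to 1445, 985 to 988 and 2874 to 2905, with 8 of 10 lower in KO against WT and 9 of 10 higher in KO_PAPC against KO. Primitive and visceral endoderm genes summed to 479 to 489 normalized CPM in WT, 259 to 264 in KO and 37.0 to 38.3 in KO_PAPC, with 8 of 10 lower in KO and all 10 lower in KO_PAPC. Neuroectoderm genes summed to 222 to 229 normalized CPM in WT, 141 to 147 in KO and 365 to 369 in KO_PAPC, with 3 higher and 5 lower in KO and 8 higher and 0 lower in KO_PAPC against KO. Primitive streak and mesoderm genes, which include *Fgf8*, summed to 47.2 to 51.2, 38.2 to 39.0 and 71.6 to 74.9, with *Eomes* the highest of them, and went both ways, with 3 higher and 4 lower in KO and 5 higher and 3 lower in KO_PAPC against KO. Trophoblast genes summed to 67.8 to 70.02, 303 to 311 and 37.8 to 41.6, mostly from *Tfap2c*, with 4 higher and 1 lower in KO and 1 higher and 6 lower in KO_PAPC against KO, while *Tpbpa* had no count in any library. The order of *Dusp6*, *Spry2*, *Spred1* and *Fgfr1* over the groups was that of the epiblast, neuroectoderm and streak sums alike, and *Etv4* and *Etv5* were highest in KO, as were the naive, trophoblast and fibroblast sums. The endoderm sum fell from WT to KO and again to KO_PAPC, an order that none of the members had. Fibroblast genes summed to 15.2 to 15.6, 21.1 to 23.4 and 17.9 to 20.9, and *S100a4*, *Lum* and *Fap* had at most 3 counts in every library.

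For each of the 10 genes the tested gene most like it was found by the smallest root mean square difference of log2(CPM + 1), centred on the gene's own mean, over the 9 libraries among 9772 genes. *Fgfr1* was nearest to *H2afy2* (0.029), *Dusp6* to *1110038B12Rik* (0.036), *Spry2* to *Ankrd6* (0.038), *Spred1* to *Rfwd3* (0.027), *Spry4* to *Ina* (0.038), *Spry1* to *Clspn* (0.031), *Etv4* to *Dhx8* (0.028), *Etv5* to *Rims3* (0.027), *Fgf4* to *Arfrp1* (0.028) and *Fgfr2* to *Trap1* (0.031). None of these is a gene of the pathway list. Among the 10 themselves *Fgfr1* and *Dusp6* were nearest to each other, at 0.102 on the log2 scale, whereas *Etv4* was nearest to *Etv5* at 0.268.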

How the data were processed

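Libraries had been made with a TruSeq RNA v2 kit, which does not record strand, and sequenced as single-end reads. The deposited counts are whole reads per Ensembl gene, not normalized, which the authors made with STAR 2.7.2b on GRCm38 and featureCounts 1.6.5 per the labels; only uniquely mapped reads were counted. For KO and KO_PAPC the study's methods refer to settings of another experiment, which left out reads that overlap several genes, and for WT no such setting is given. For KO against WT EBs the study's methods also describe an earlier pipeline with another aligner and annotation release. Which pipeline made the WT counts is not shown. If it was the earlier one, pipeline and group cannot be told apart in the 2 comparisons with WT. No batch is labelled. Symbols and coordinates came from GENCODE M21.

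Each comparison was fitted on its own 6 libraries in edgeR 4.0.16 under R 4.3.3 (quasi-likelihood F test), TMM, filterByExpr and Benjamini-Hochberg adjustment over all tested genes, and called at an adjusted p under 0.05. The SE was derived from the F statistic. Every pair of replicates was compared by chi-square. Libraries with the same replicate number did not deviate together. A figure legend of the study gives the KO and KO_PAPC replicates as independent pools of EBs. For WT it gives 3 biological replicates. Alternatives were DESeq2 1.42.0, RLE size factors, library totals, no filter, a mean of at least 10 counts, 1 fit of all groups, the replicate number as a block, a tested minimum fold change of 2 and leaving out each library. The members, gene lists, motifs and the naming rule (all 10 members; per role and comparison the 3 largest called changes at a mean of at least 10 CPM) were chosen with earlier results of these data known, and the motif GGAA after the promoters had been searched. A gene that this rule names is not reported here.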

Additional observations from a re-analysis of the deposited data

How the results depend on the processing

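The numbers of called members, called pathway genes and all called genes stayed within 1.5 times of the reported values under DESeq2, RLE size factors, library totals, both filters, the joint fit of 3 groups and the replicate block. Under a tested minimum fold change of 2, which by construction calls fewer, the members called were 0 in KO against WT, 3 in KO_PAPC against KO and 0 in KO_PAPC against WT, the pathway genes 5, 20 and 9, and all genes 1587, 3554 and 1335. When each library was left out in turn the counts were 8 to 9, 9 to 10 and 7 to 9 members, 55 to 58, 64 to 68 and 57 to 63 pathway genes, and 12382 to 12820, 13785 to 14137 and 11208 to 11654 genes in all.

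The members' median log2 fold change was -0.055 to -0.0066 in KO against WT when 1 library was left out (-0.0066 without WT replicate 1), 0.57 to 0.597 in KO_PAPC against KO and 0.448 to 0.46 in KO_PAPC against WT. Without the filter it was -0.043 in KO against WT and 0.60 in KO_PAPC against KO, with library totals 0.41 in KO_PAPC against KO and 0.288 in KO_PAPC against WT, and in DESeq2 0.471 in KO_PAPC against WT. Library totals reversed *Fgf4* in KO_PAPC against KO (-0.082) and *Etv5* in KO_PAPC against WT (-0.039), a scaling that moved the median of all genes too, as given above. Of 975 alternatives for named genes other than the minimum fold change, 962 kept direction and side of the threshold, 4 lost the call, 7 gained it and 2 reversed.

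Correlations of the deviations of libraries that share a replicate number ran from -0.042 to 0.062, so no pairing was used. With the replicate block, 8, 10 and 9 members were called, the ninth being *Fgf4* (-0.053), and it changed no other member's call. Members had 713 to 11193 counts per library, and those with the fewest on average, *Fgfr2* and *Spry1*, had the largest SE in every comparison.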
